A study of Mus musculus with 2 samples.

Results

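The genes described here belong to the pathway through which TEAD transcription factors and their coactivators YAP and TAZ control transcription. They were chosen by name: the 4 TEAD genes Tead1, Tead2, Tead3 and Tead4, the coactivator genes Yap1 and Wwtr1 (which encodes TAZ), and the target genes Ctgf, Cyr61, Ankrd1 and Amotl2. All 10 were among the 17408 genes measured. The cells were mouse embryonic fibroblasts (MEFs) that carried STEMCCA, a doxycycline-inducible cassette of reprogramming factors, and were collected without sorting on day 16 of their conversion to induced pluripotent stem cells (iPSCs). They were grown in serum and LIF with doxycycline and ascorbic acid, detached with trypsin, and profiled by droplet single-cell RNA-seq of 3' ends (Chromium version 2 chemistry). There were 2 libraries in 1 group, with no untreated library, so every comparison below is between cells of the same library. According to the study, the populations of this day came from a pair of independent STEMCCA mouse systems, but no label ties either system to a library. The p-values measure how far a difference between kinds of cell varies over these 2 libraries, with the variance of each gene drawn towards that of all genes. In that variation mouse system, culture and technical differences cannot be told apart.

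TEAD proteins bind DNA but activate little on their own. YAP and TAZ bind to them in the nucleus and supply the activation, and the Hippo kinases hold YAP and TAZ in the cytoplasm by phosphorylating them. Stretched, spread and contractile cells are known for nuclear YAP and TAZ and for high levels of the targets, among which Ctgf and Cyr61 encode secreted matricellular proteins, Ankrd1 a muscle ankyrin-repeat protein and Amotl2 an angiomotin that in turn binds and restrains YAP. In the early mouse embryo TEAD4 with YAP specifies the trophectoderm, and Tead2 is known to be expressed from the first cleavages. RNA levels do not report where YAP and TAZ proteins are.

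The short sequence that TEAD proteins recognise was looked for in the 250 bases before the transcription start sites of the genes, as given by RefSeq on GRCm38.p6, because the levels of the targets are compared throughout. Of the 10 genes 7 were matched to 10 start sites, and Tead1, Tead4 and Ctgf were not. GGAATG, or CATTCC when read on the other strand, occurred in 8 of these 10 windows, which belonged to 6 of the 7 genes, and in 12.6% of all 32851 windows of this length (14.4% of 27025 genes). The AP-1 sequence TGANTCA (6.75% of all windows) and the CArG box (1.47%) occurred in none of the 10. Both windows of Wwtr1 hold the same copy. The whole window of Cyr61 (chr3:145649986-145650235, minus strand) is printed as the example of a target, with its single copy, which begins 103 bases before the start, in capitals:
Cyr61: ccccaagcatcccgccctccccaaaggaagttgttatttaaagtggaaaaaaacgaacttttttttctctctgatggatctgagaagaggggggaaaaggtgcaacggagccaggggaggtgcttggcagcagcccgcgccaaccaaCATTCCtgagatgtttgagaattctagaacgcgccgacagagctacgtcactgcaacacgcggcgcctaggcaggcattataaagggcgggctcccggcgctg

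For the other targets and for the coactivators only the 6 bases and 12 on either side are shown, so that the copies can be set beside each other. Ankrd1 held a pair, at -210 (chr19:36120037-36120066, minus strand) and -123 (chr19:36119950-36119979) from its start, Amotl2 1 at -65 (chr9:102717727-102717756, plus strand), Yap1 1 at -141 (chr9:8004720-8004749, minus strand) and Wwtr1 1 at -136 from the first of its start sites (chr3:57576029-57576058, minus strand). Tead3 held 1 copy at -182 from its first start site and a pair at -123 and -114 from its second, and Tead2 held none in its window. Every window except that of Cyr61 and the first of Wwtr1 overlapped an annotated exon. The windows of Ankrd1 and Amotl2 lay within the annotated bounds of their own genes. Their copies are thus before the RefSeq start used, but not outside annotated transcribed sequence. A match is a description of these letters and not evidence that a factor is bound.
Ankrd1 -210: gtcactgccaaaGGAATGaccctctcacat
Ankrd1 -123: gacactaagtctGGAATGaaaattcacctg
Amotl2 -65: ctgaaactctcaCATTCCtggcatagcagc
Yap1 -141: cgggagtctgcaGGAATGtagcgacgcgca
Wwtr1 -136: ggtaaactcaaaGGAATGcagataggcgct

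Replicate 1 held 3109 cells and 54145377 unique molecular identifiers (UMIs, each standing for 1 captured RNA molecule), and replicate 2 held 3914 cells and 64654306 UMIs, with medians of 15625 and 14292 UMIs per cell. The libraries shared 12 cell barcodes. Clustering without the 10 genes and the listed Hippo, Vgll and other target genes gave 20 cell states, of which 16 had at least 30 cells in both libraries. The listed immediate-early and trophectoderm genes were not left out of the clustering. State 5 was pluripotent-like, since 10 of its 10 markers exceeded the remaining cells by 2-fold or more, and held 146 cells in replicate 1 and 391 in replicate 2. Its cells were deeper than the others, with medians of 28768 and 26097 UMIs against 15214 and 13651. States are named below by their leading genes, and a level is the mean over cells of UMIs per 10000 UMIs of the cell.

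The first comparison asked how the pathway differed between pluripotent-like cells and all other cells of the same library. The TEAD genes went in both directions. Tead1 (chr7:112679318-112906807 on GRCm38), a TEAD gene widely expressed in mesenchymal cells, was at 0.263 and 0.410 in the pluripotent-like cells of replicates 1 and 2 and at 0.797 and 0.759 in the other cells. The log2 fold change was -1.03 ± 0.13 (SE; adjusted p = 7.0e-05, limma with Benjamini-Hochberg adjustment over 7131 genes, on log2 of the level plus 0.1, n = 2 libraries). Tead2 (chr7:45215753-45233644) went the other way, from 0.525 and 0.473 in the other cells to 0.846 and 0.729 in pluripotent-like cells (log2 fold change 0.57 ± 0.089 SE, adjusted p = 3.1e-04). The values of the 2 kinds of cell did not overlap for either gene. Of all genes tested 31.5% were called higher and 46.2% lower, and the share without overlap was not counted.

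Tead3 and Tead4 were too low over all cells for the test, which took genes with a mean of at least 0.1. Tead4 (chr6:128224288-128300823), the trophectoderm factor, was at 0.119 and 0.110 in pluripotent-like cells and at 0.045 and 0.052 in the other cells. In summed UMIs relative to depth this was 2.42 times the other cells in replicate 1 (95% exact interval 1.76 to 3.26) and 1.74 times in replicate 2 (1.38 to 2.17), from 53 and 108 UMIs in the pluripotent-like cells. Tead3 (chr17:28331671-28350817) was nearly absent from pluripotent-like cells. It had 2 UMIs there in replicate 1 and 11 in replicate 2, or 0.060 times (0.0073 to 0.220) and 0.181 times (0.090 to 0.329) the other cells. These intervals cover counting error only.

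Both coactivators were lower in pluripotent-like cells, TAZ far more than YAP. Wwtr1 (chr3:57455649-57575910) was at 0.119 and 0.147 in pluripotent-like cells against 0.599 and 0.576 in the others, a log2 fold change of -1.56 ± 0.096 (SE; adjusted p = 7.7e-07, limma). Yap1 (chr9:7931999-8004596) was at 0.227 and 0.173 against 0.334 and 0.295 (log2 fold change -0.47 ± 0.091 SE, adjusted p = 0.0011). Summed, the pair came to 0.333 ± 0.018 (SD, n = 2) in pluripotent-like and 0.901 ± 0.043 in other cells.

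All 4 targets were lower in pluripotent-like cells, and their summed level was 0.330 ± 0.016 (SD, n = 2) there against 2.04 ± 0.20 in the other cells. Cyr61 (Ccn1 in current annotation, chr3:145646976-145649981), which encodes a matricellular ligand of integrins, was at 0.0883 and 0.137 against 0.850 and 1.01. Its log2 fold change was -2.28 ± 0.090 (SE; adjusted p = 6.7e-08, limma), the largest of the 8 tested with 0.1 added to the level, whereas with 0.01 added Ankrd1 (-3.22) exceeded Cyr61 (-2.96). Ankrd1 (chr19:36111961-36120099) was at 0.0381 and 0.00686 against 0.347 and 0.186, Amotl2 (chr9:102716672-102733418) at 0.121 and 0.120 against 0.628 and 0.456, and Ctgf (Ccn2, chr10:24595442-24598683), a matricellular protein of fibrotic tissue, at 0.0717 and 0.0769 against 0.360 and 0.247. No value of a pluripotent-like profile reached that of an other-cell profile for any of the 4. The share of all genes without such overlap was not counted, and 46.2% of them were called lower. Their log2 fold changes were -1.56 ± 0.10, -1.53 ± 0.11 and -1.197 ± 0.12 (SE), with adjusted p of 9.8e-07, 2.0e-06 and 1.3e-05 (limma).

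**Figure D1:**
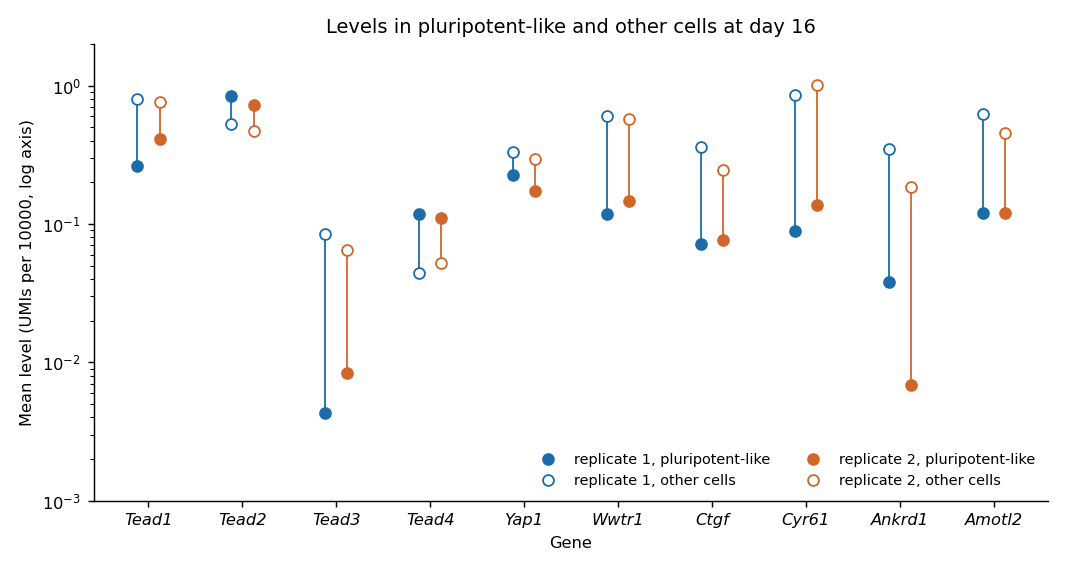
Mean level of each gene in UMIs per 10000 (log axis) in pluripotent-like cells (filled points) and all other cells (open points) of replicate 1 (blue) and replicate 2 (orange), joined within a library. Tead2 and Tead4 are the 2 genes whose filled points lie above the open ones.

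Of the 8 genes tested, 1 was higher and 7 were lower. These counts stand against a comparison in which most genes differed: 31.5% of the 7131 genes tested were called higher and 46.2% lower, and the median log2 fold change was -0.16 over all genes and -1.36 over the 8. Against the fibroblast-like cells alone (states led by Eln and by Cthrc1) the same 8 genes kept their directions. The targets were then at log2 fold changes of -2.95 (Ankrd1), -2.80 (Amotl2), -2.61 (Ctgf) and -2.48 (Cyr61). These sizes hold for the states so named. The Spp1-led state, with 8 of 11 fibroblast markers raised, stayed unnamed because its leading genes held more markers of another class. In it Ankrd1 was at 0.114 and 0.0959, Ctgf at 0.475 and 0.275, Amotl2 at 0.636 and 0.471 and Cyr61 at 0.766 and 0.978.

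RNA free in the cell suspension can give a gene counts in cells that do not express it, and a like share for all genes of 1 source. The 11 listed fibroblast markers were found in pluripotent-like cells at a median of 5.31% of their level in other cells in replicate 1 (range 0 to 15.5%) and 6.99% in replicate 2 (4.27 to 13.2%). The residual levels of 3 genes were near that range: Tead3 at 5.12% and 13.0%, Ankrd1 at 10.99% and 3.69%, and Cyr61 at 10.4% and 13.6%. Above it were Wwtr1 (19.9% and 25.6%), Amotl2 (19.3% and 26.4%), Ctgf (19.9% and 31.1%), Tead1 (33.0% and 54.1%) and Yap1 (67.9% and 58.6%). In the 13 macrophage-like cells, which held 122646 UMIs in all, 8 of the 10 genes had 0 UMIs, which allows a level of up to 0.245 per 10000, and Wwtr1 and Amotl2 had 1 each. At the level of the other cells, 11.5 UMIs of Cyr61 and 9.52 of Tead1 would have been counted there, but only 0.905 of Tead3 and 0.596 of Tead4. For Tead3 and Tead4 a count of 0 is therefore uninformative.

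Markers of several kinds moved with the targets. In both libraries each of the 11 fibroblast markers was lower in the pluripotent-like cells, with summed levels of 2.21 and 1.70 against 34.98 and 21.6, and none was at 0. In either library all 8 listed myofibroblast markers, such as Acta2 and Tagln, were lower in pluripotent-like cells, with summed levels of 2.99 and 2.63 against 51.6 and 34.1, and none was at 0. The 10 listed immediate-early genes, which respond to cell dissociation and to serum as Cyr61 also does, summed to 2.87 and 3.32 against 7.72 and 10.2, and 8 of them were lower in both libraries. Of 8 listed senescence markers 7 were lower in both, with sums of 1.53 and 2.07 against 6.54 and 5.69, and Il6 was at 0 UMIs. Macrophage (0.132 and 0.177 against 0.233 and 0.539) and mesothelial markers (0.0555 and 0.0543 against 0.146 and 0.426) were at low sums in both kinds of cell. With Tead2 and Tead4, 7 of 11 epithelial markers were higher in both libraries (sums of 2.24 and 3.29 against 0.705 and 0.518), as were 3 of 6 trophoblast markers (0.434 and 0.640 against 0.0264 and 0.0380). Neural sums were higher too (7.86 and 5.58 against 2.19 and 1.70), with 3 of 8 markers higher in both libraries and 3 lower. So were endothelial sums (0.483 and 0.542 against 0.0640 and 0.0603), with 3 of 5 higher and 1 lower. Keratinocyte sums were 0.795 and 0.741 against 0.184 and 0.0603, with 2 of 6 higher and 2 lower. The part of any of these in the levels of the 10 genes was not tested.

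The make-up of the TEAD family was next compared as shares of the summed UMIs of its 4 genes. UMIs were counted from 3' ends and so were not divided by length, and since capture can differ from gene to gene the shares are compared between cells and not between genes. Tead1 made up 20.7% of TEAD UMIs in the pluripotent-like cells of replicate 1 (exact binomial 95% interval 17.3 to 24.4) and 30.2% in replicate 2 (27.7 to 32.8), but 54.1% (53.0 to 55.2) and 55.1% (54.0 to 56.3) in the other cells. Tead2 made up 68.8% and 60.5% against 37.0% and 36.3%. Tead4 contributed 10.1% and 8.39% against 3.54% and 4.36%, and Tead3 0.380% and 0.855% against 5.34% and 4.25%. The family sum itself was 1.25 ± 0.018 (SD, n = 2) in pluripotent-like and 1.40 ± 0.073 in other cells.

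The differences in share were -29.1 ± 5.999 percentage points for Tead1, 28.0 ± 5.34 for Tead2, 5.28 ± 1.77 for Tead4 and -4.18 ± 1.11 for Tead3 (SD, n = 2). Yap1 made up 62.9% (54.7 to 70.6) and 53.4% (47.9 to 58.8) of the UMIs of the coactivator pair in pluripotent-like cells and 37.1% and 35.2% in other cells, a difference of 22.0 ± 5.35 points. Each difference had the same sign in both libraries, and with 2 libraries the exact two-sided sign-flip test cannot go below its p of 0.5.

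**Figure D2:**
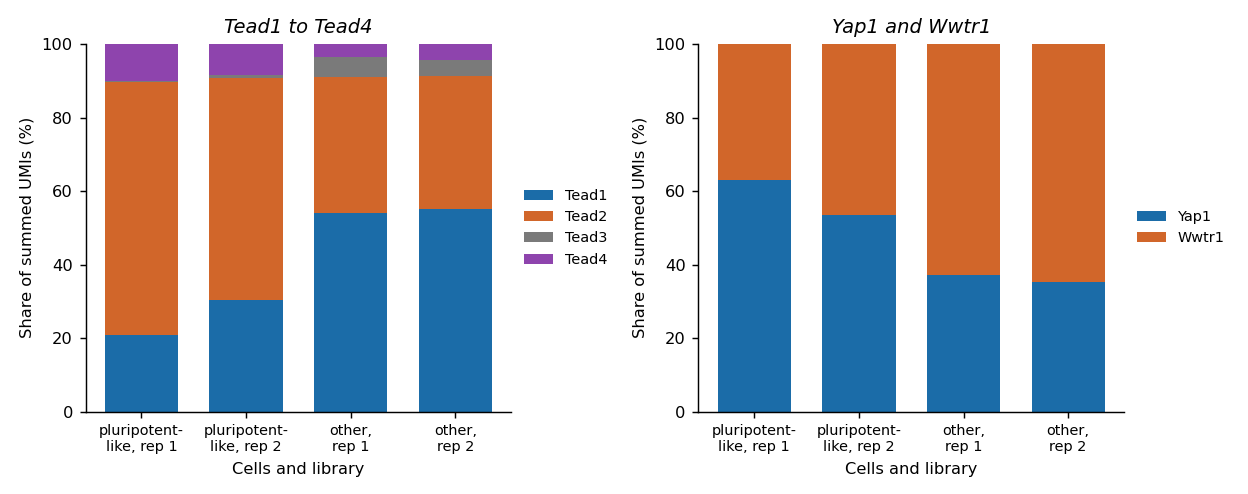
Share of summed UMIs (%) taken by each TEAD gene (left) and by Yap1 and Wwtr1 (right) in pluripotent-like and other cells of each library. Tead2 takes over 60% of TEAD UMIs in both pluripotent-like bars and under 40% in both others.

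Because pluripotent-like cells were deeper, shares of cells with a UMI were read after thinning every cell to 3000 UMIs, which left out 0 cells. Then the share was lower in pluripotent-like than in other cells of both libraries for 8 of the 10 genes and higher for Tead2 and Tead4. The intervals of the 2 kinds of cell overlapped for Tead3 and Tead4 in both libraries and for Tead2, Yap1 and Ctgf in replicate 1. Overlap of such intervals is not a test, and no test across cells was run. Which intervals overlapped also changed with depth. At 4000 UMIs the intervals were apart for Tead3 in both libraries, Tead2 and Ctgf in replicate 1 and Tead4 in replicate 2. There they overlapped for Tead4, Yap1 and Ankrd1 in replicate 1 and for Tead2 in replicate 2. Each depth was a single random draw, and the intervals cover the sampling of cells only. Tead2 was found in 18.5% of pluripotent-like cells of replicate 1 (95% exact binomial interval 12.6 to 25.8) and 19.9% of replicate 2 (16.1 to 24.3), against 14.6% (13.3 to 15.9) and 13.1% (11.96 to 14.2) of other cells. Tead4 was found in 2.74% (0.751 to 6.87) and 2.302% (1.06 to 4.32), against 1.35% (0.966 to 1.83) and 1.56% (1.18 to 2.03). Cyr61 was found in 0.685% of pluripotent-like cells of replicate 1 (95% exact binomial interval 0.0173 to 3.76) and 4.09% of replicate 2 (2.36 to 6.56), against 18.3% and 21.5% of other cells. Ankrd1 was found in 0.685% of pluripotent-like cells and in 0% (0 to 0.939), against 5.67% and 3.55%. Yap1 was found in 8.22% (4.32 to 13.9) and 3.84% (2.16 to 6.25), against 9.85% (8.80 to 10.98) and 8.49% (7.59 to 9.46). Without thinning, Yap1 would appear in more pluripotent-like (43.8% and 35.04%) than other cells (41.0% and 34.4%), the reverse of its level per 10000. Unthinned shares of Cyr61 were 20.5% and 22.0% against 51.3% and 50.7%.

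The rest of the pathway was taken from lists of genes. Among 16 Hippo kinases and upstream genes, 13 were tested, of which 10 were lower and 3 higher in pluripotent-like cells, with a median log2 fold change of -0.88, where 46.2% of all genes were called lower and 31.5% higher. Only 1 of the 13 was called higher with a pseudocount of 1, and likewise in cells without a Y-linked UMI. The lowest were Amotl1, another angiomotin (log2 fold change -2.09, at 0.0905 and 0.101 against 0.770 and 0.701), and Lats2, a kinase that phosphorylates YAP and whose gene is itself a YAP target (-1.59, at 0.0577 and 0.0563 against 0.387 and 0.361). Higher were Nf2, the tumour suppressor Merlin that activates the kinases (0.68, at 0.403 and 0.374 against 0.224 and 0.185), Stk4, which encodes the kinase MST1 (0.28), and Wwc1, which encodes KIBRA (0.27). Stk3, which encodes the related kinase MST2, was among those that were lower (-1.21). Wwc1 and Stk3 were picked out after their values had been seen.

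Of 18 other listed targets of YAP and TEAD, 15 were tested, 13 were lower, 1 was higher and 1 did not pass, with a median log2 fold change of -1.64. Lats2 and Ptpn14 stand in both lists. The largest decreases were those of Ccdc80, a secreted matrix protein (-3.18, at 0.134 and 0.0575 against 2.07 and 1.29), and Igfbp3, an IGF-binding protein (-3.02, at 0.126 and 0.0837 against 1.91 and 1.27). The target that rose was Gadd45a, a stress and DNA-damage gene (0.98, at 1.07 and 0.959 against 0.442 and 0.493). Both Vgll genes tested, of 4 listed, were lower: Vgll3 (-1.59) and Vgll4, whose product competes with YAP for TEAD (-1.09). Of 9 immediate-early genes tested, 8 were lower, with Junb (-2.27) and Egr1 (-2.15) lowest. All of these are calls of limma with an adjusted p under 0.05, to be read against the 46.2% of all genes called lower. Of the 5 listed trophectoderm genes that TEAD4 is linked to, 4 were measured and none reached the level needed for the test.

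**Figure D3:**
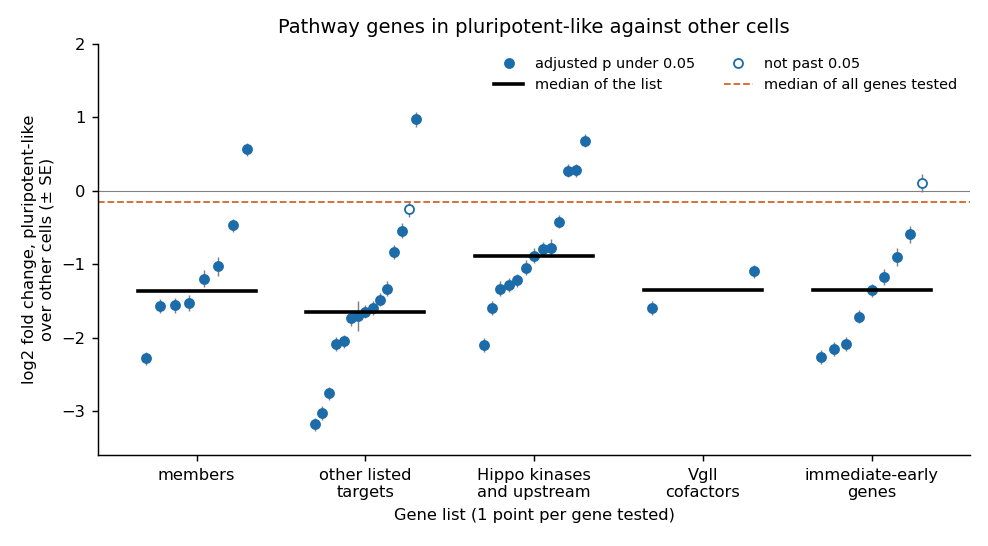
Log2 fold change (± SE) of each gene tested, pluripotent-like over other cells, by list; the black line is the median of a list and the dashed line that of all 7131 genes tested. The medians of all 5 lists lie below the dashed line, and 1 target, 3 Hippo genes and 1 member lie above 0 as filled points.

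How the genes varied among cells that were not pluripotent-like was asked over the 15 such states with at least 30 cells in both libraries. All 8 genes tested varied over states (limma F test, adjusted p under 0.05), as did 86.6% of all genes, so the size of the variation says more than the call. Between its highest and lowest state Ankrd1 spanned 3.63 on log2 of the level plus 0.1, Ctgf 3.39, Amotl2 3.14, Cyr61 1.97, Tead2 1.65, Tead1 1.53, Wwtr1 1.31 and Yap1 0.80, beside a median of 0.98 over all genes tested. On this scale Yap1 varied least, from 0.234 and 0.242 in the Cytl1-led cells to 0.403 and 0.589 in the Eln-led cells. It was the only gene of the 8 under the median. The added 0.1 narrows the spans of genes at low levels. As a ratio of mean levels without it, Ankrd1 spanned 104-fold and Yap1 2.09-fold, again the least of the 8. A median of that ratio over all genes was not computed.

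Tead1 was highest in the cells led by Mylk, the smooth-muscle myosin light chain kinase, at 1.504 and 1.65, and in the fibroblast-like cells led by Eln and Mki67, at 1.37 and 1.54. The values of these 2 states overlapped. They were followed by the Rgcc-led cells (1.06 and 1.09), apart from both, and the Cthrc1-led fibroblast-like cells (0.919 and 0.927), each apart from the next. From the Isg15-led cells (0.812 and 0.748) down to the Dkk2-led cells (0.581 and 0.677) no neighbour in the order differed beyond the range of the libraries. The lowest of the 15 were the Dmrtc2-led cells (0.423 and 0.540), still above the pluripotent-like cells without overlap. Tead1, Tead3, Yap1, Wwtr1 and Cyr61 were above their pluripotent-like values in all 15 states. For how many of all genes this holds was not counted, while 46.2% were called lower in pluripotent-like cells.

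Tead2 showed an order of its own. It was highest in the Cd24a-led cells (0.949 and 0.817), in the cells led by 2810417H13Rik and the histone gene Hist1h1b (0.825 and 0.791) and in those led by the centromere gene Cenpa (0.797 and 0.665). The pluripotent-like cells, at 0.846 and 0.729, lay among these 3 and overlapped with each. Lowest were the Cthrc1-led cells (0.158 and 0.279), where Ctgf was highest. Tead4 was highest in the Cd24a-led cells (0.120 and 0.128), the pluripotent-like cells and the cells led by Perp and Krt19 (0.123 and 0.0941). In all other states it was at 0.0923 or less, down to 1 UMI per library in the Mmp11-led cells (0.00344 and 0.00540).

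Wwtr1 was highest in the Pcp4-led (0.907 and 0.880) and Spp1-led cells (0.857 and 0.896), which did not differ beyond the spread of the libraries. Lowest among the 15 were the Hist1h1b-led cells (0.263 and 0.340). The YAP share of the coactivator UMIs in those Hist1h1b-led cells was 53.7% (47.4 to 59.9) and 41.6% (36.2 to 47.3), against 27.7% (23.3 to 32.4) and 28.8% (25.8 to 32.0) in the Pcp4-led cells. In share of TEAD UMIs, Tead1 was low in the Cd24a-led (32.9% and 43.7%), Hist1h1b-led (35.9% and 39.02%) and Cytl1-led cells (44.6% and 43.4%) and highest in the Mylk-led cells (72.4% and 75.4%), and its 20.7% and 30.2% in pluripotent-like cells were below each of the 15 states in the same library. Tead4 held 11.1% and 9.01% of TEAD UMIs in the Perp-led cells, near its share in pluripotent-like cells.

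**Figure D4:**
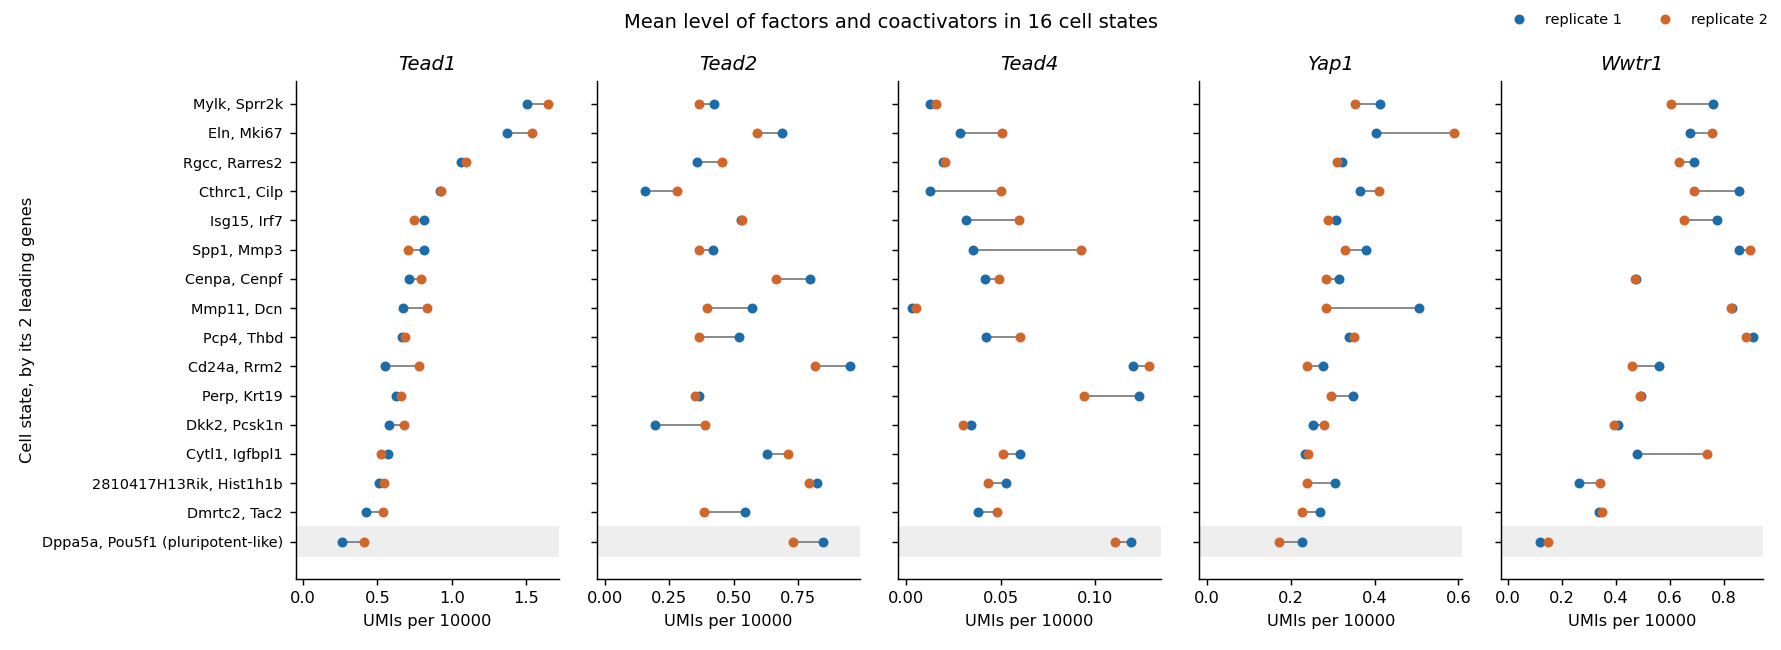
Mean level (UMIs per 10000) of Tead1, Tead2, Tead4, Yap1 and Wwtr1 in 16 cell states named by 2 leading genes and ordered by Tead1, with 1 point per library joined by a line. The pluripotent-like row (grey) is lowest for Tead1, Yap1 and Wwtr1 and among the highest 3 for Tead2 and Tead4.

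The targets did not share 1 order. Ctgf stood out in the fibroblast-like cells led by Cthrc1, Cilp and Thbs4, at 1.73 and 1.79, apart from the next state, the Rgcc-led cells at 0.681 and 0.571. It was at 0.102 and 0.0559 in the Hist1h1b-led cells. Cyr61 was at 1.38 and 1.90 in the Rgcc-led cells, 1.71 and 1.18 in the Cthrc1-led cells and 1.1996 and 1.42 in the Pcp4-led cells, 3 states whose values overlapped. In the Mylk-led cells it was only 0.713 and 1.08. Its lowest value outside the pluripotent-like cells was 0.269 and 0.422 in the Cd24a-led cells, apart from the state above and the state below.

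Ankrd1 had the widest span, from 1.37 and 1.199 in the Mylk-led cells to 0.0246 and 0 in the Cytl1-led cells. After the Mylk-led came the Eln-led (1.07 and 1.13) and Cd24a-led cells (0.918 and 0.620), each apart from the next. The Cd24a-led cells thus came after these for Ankrd1 and last of the 15 for Cyr61. In 11 states Ankrd1 lay above the pluripotent-like cells without overlap, and in the other 4 it overlapped with them. Amotl2 was highest in the Cthrc1-led (1.67 and 1.44), Eln-led (1.46 and 1.30) and Mylk-led cells (1.43 and 1.28). The Eln-led values overlapped with those of both others, while the Cthrc1-led and Mylk-led values did not overlap. They were followed by the Rgcc-led cells at 1.15 and 1.16. The Dmrtc2-led cells, at 0.0832 and 0.0917, were below the pluripotent-like cells (0.121 and 0.120) without overlap, the 1 case for a target.

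**Figure D5:**
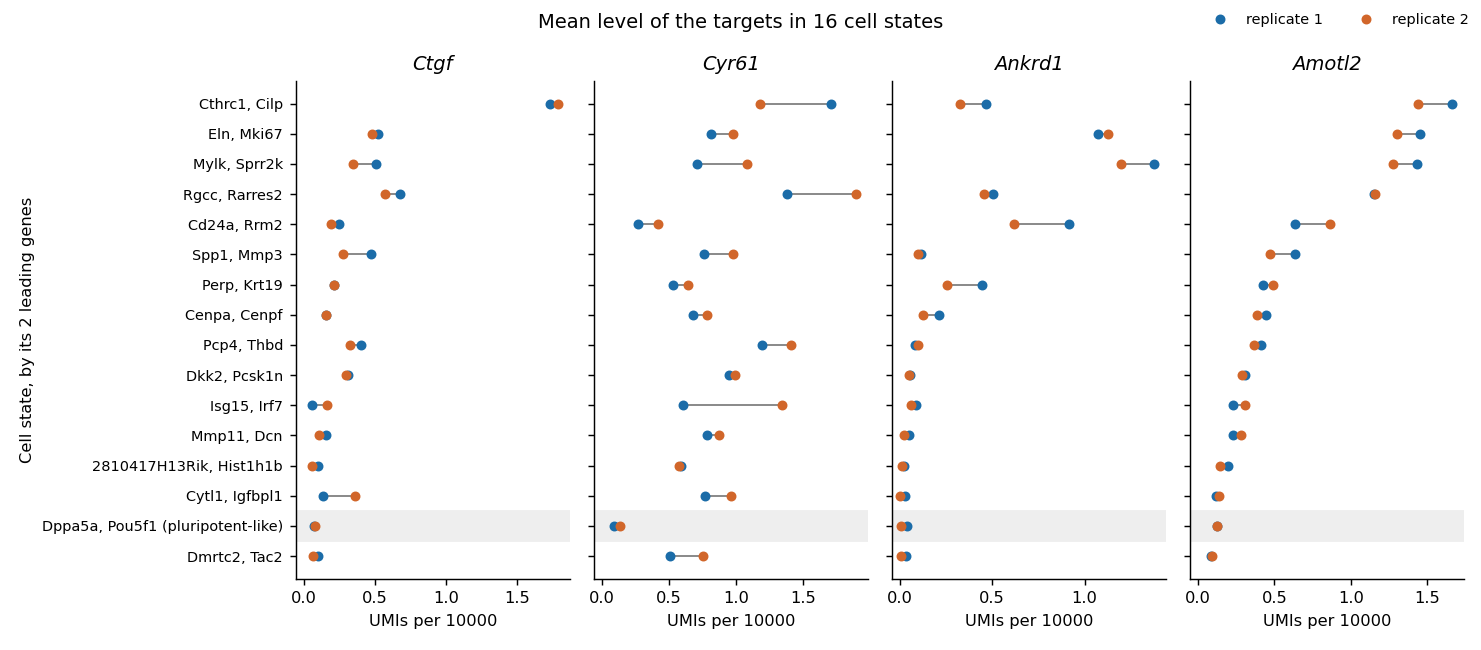
Mean level (UMIs per 10000) of Ctgf, Cyr61, Ankrd1 and Amotl2 in 16 cell states named by 2 leading genes and ordered by Amotl2, with 1 point per library joined by a line. The 4 upper rows hold the highest Amotl2 values, Ctgf peaks in the Cthrc1 row, and Cyr61 is highest in the Rgcc, Cthrc1 and Pcp4 rows.

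Over the 16 states, on log2 of the level plus 0.1, Pearson's r between Ankrd1 and Amotl2 was 0.87 in replicate 1 and 0.93 in replicate 2, but between Ankrd1 and Cyr61 only 0.15 and 0.25. Tead1 had r of 0.83 and 0.86 with Amotl2 and 0.71 and 0.87 with Ankrd1. Wwtr1 had r of 0.72 and 0.79 with Cyr61 and 0.41 and 0.30 with Ankrd1. Tead2 was negative with all 4 targets, from -0.66 with Cyr61 in replicate 1 to -0.11 with Ankrd1. These are descriptions over states that share a library and its free RNA, and they carry no test.

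Likeness to single genes was ranked by the lower r of both libraries over 16 states, outside the pathway lists but with cell type markers kept. The genes most like Ankrd1 were Actb (r of 0.97 and 0.95), Cnn1 (0.91 and 0.93) and Myl6 (0.91 and 0.91). Cnn1 is itself a listed myofibroblast marker. Those most like Ctgf were Cpxm2 (0.88 and 0.88), Man1c1 (0.88 and 0.90) and Lmcd1 (0.90 and 0.88), and those most like Cyr61 were 2900026A02Rik (0.92 and 0.92), Serping1 (0.93 and 0.89) and Smpdl3a (0.90 and 0.88). For Tead4 they were Psmd14 (0.84 and 0.81), Brms1 (0.82 and 0.80) and Psmb5 (0.86 and 0.79). No gene appears in more than 1 of these sets.

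Cells with raised myofibroblast markers were then set against the other cells that were not pluripotent-like. By the rule for names the Rgcc-led state was the myofibroblast-like one, but it had only 4 of 8 markers raised at least 2-fold, with none among its 10 leading genes. The Mylk-led state had 8 of 8 raised and stayed unnamed because its leading genes held more fibroblast markers, so it was added as a second comparison after the data had been seen. The 8 markers summed to 88.3 and 80.2 in the Rgcc-led cells and to 123 and 104 in the Mylk-led cells, beside 51.6 and 34.1 in all cells that were not pluripotent-like.

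In the Rgcc-led cells (529 and 312 cells) 5 of the 8 genes tested were higher and 0 lower, where 14.6% of all genes were called higher and 18.4% lower. All 4 targets were among the 5. Amotl2 was at 1.15 and 1.16 against 0.514 and 0.387 (log2 fold change 1.2004 ± 0.10 SE, adjusted p = 7.7e-04, limma), and Ctgf at 0.681 and 0.571 against 0.290 and 0.216 (1.05 ± 0.075, adjusted p = 5.3e-04). Cyr61 (0.90 ± 0.078), Ankrd1 (0.83 ± 0.13) and Tead1 (0.50 ± 0.073) followed. The coactivators did not pass: Wwtr1 was at 0.688 and 0.634 against 0.579 and 0.571 (adjusted p = 0.13, limma), and Yap1 at 0.322 and 0.311 against 0.336 and 0.293 (adjusted p = 0.94, limma). Without the filter on low values none of the 5 passed, with adjusted p between 0.087 and 0.18 (limma). With clustering at resolution 2, where the myofibroblast-like cells numbered 266 and 149, Cyr61 did not pass (log2 fold change 0.00048, adjusted p = 0.997, limma).

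In the Mylk-led cells (202 and 106 cells) 4 of the 8 were higher and 1 lower, where 25.1% of all genes were called higher and 20.9% lower. Ankrd1 was at 1.37 and 1.199 against 0.272 and 0.155 (log2 fold change 2.17 ± 0.12 SE, adjusted p = 2.8e-05, limma), Amotl2 rose by 1.28 ± 0.10, Tead1 by 1.00 ± 0.10 and Ctgf by 0.41 ± 0.097. Tead2 fell to 0.423 and 0.366 against 0.532 and 0.476 (log2 fold change -0.29 ± 0.097 SE, adjusted p = 0.044, limma). Cyr61, at 0.713 and 1.08 against 0.860 and 1.01, did not pass (-0.07 ± 0.12, adjusted p = 0.63, limma). Immediate-early genes summed to 6.37 and 10.1 in the Mylk-led and to 10.2 and 13.5 in the Rgcc-led cells, and their part in the level of Cyr61 was not tested.

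Between the libraries, taken whole, 3 targets differed most: Ankrd1 was at 0.332 in replicate 1 and 0.168 in replicate 2, Amotl2 at 0.604 and 0.422, and Ctgf at 0.346 and 0.230. With equal weight to each of the 16 states the log2 ratio of replicate 2 to replicate 1 went from -0.69 to -0.23 for Ankrd1, from -0.43 to -0.05 for Amotl2 and from -0.43 to -0.08 for Ctgf. Ankrd1 was higher in replicate 1 in 14 of the 16 states. Cyr61 was higher in replicate 2 in 14 of the 16, with log2 ratios of 0.16 whole and 0.25 at equal weights. With 1 library each, no test of these differences was possible, and a difference between mouse systems cannot be told apart from one between libraries.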

How the data were processed

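The authors obtained counts with Cell Ranger (version 2.1.1, mm10), kept cells with 1500 to 6000 detected genes and under 9% mitochondrial RNA in Seurat, and deposited values on a natural log scale, after scaling each cell to 10000 UMIs and adding 1. Undoing the log gave cell sums of 10000 and whole multiples of the smallest value of a cell in 100% of cases (tolerance 0.01), from which UMIs were recovered. Cells were assigned to libraries by barcode suffix, with 0 columns left unassigned. No doublets were removed here, and for the authors' steps such a removal is not given in the sources that were used. The 10 genes, the lists and the markers were chosen with earlier results of these data known.

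Clustering used 2000 variable genes in all, ranked within each library (scanpy version 1.11.5), 30 components, 15 neighbours and Leiden resolution 1. Left out were X-linked and Y-linked genes, reprogramming factors, 5 held-out pluripotency genes and 44 pathway genes. The 44 were the 10 genes and the lists of Hippo, Vgll and other target genes. States were named from 87 markers of 11 classes, if at least 3 and at least 50% of a class's markers were 2-fold (log2 of 1) above the other cells and the 10 leading genes did not favour another class. The states and the tests came from the same cells. Profiles (mean level per class and library) were compared on log2(level + 0.1) with limma (3.58.1, under R 4.3.3), with terms for class and library, over 7131 genes with a mean of at least 0.1, at a threshold of 0.05. No count model was fitted; profiles from the recovered UMIs, summed per class and library, were an alternative. Tested on simulated data, with 200 of 7131 genes changed 2-fold between pluripotent-like and other cells, 93.5% were recovered and 2.09% of the calls were false. The simulated profiles were Poisson counts with an assumed extra spread. In the data 31.5% of genes were called higher and 46.2% lower, between classes defined on the same cells. The simulated rates therefore hold for their own setting and not for this comparison. Single cells had 4753 to 60990 UMIs. Genes were placed on GRCm38 with GENCODE M21. Named genes were all 10, the 2 largest changes in each direction per list, and the 3 genes most like each of Ctgf, Cyr61, Ankrd1 and Tead4 over states.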

Additional observations from a re-analysis of the deposited data

How the results depend on the processing

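Each of the 8 log2 fold changes between pluripotent-like and other cells kept its direction, and with a test its call, under all 16 alternatives (128 values, among them other pseudocounts, clusterings, cell sets and 1 library alone). Of 232 values of the other results 221 stayed within their limits. Without the filter on low values 2 genes were called higher in place of 1, since Tead4 then entered, and 0 in place of 5 were called higher in the Rgcc-led cells. Also without it, 1 trophectoderm gene was called higher in pluripotent-like cells in place of 0. With summed UMIs, and against fibroblast-like cells alone, 1 immediate-early gene was called higher in place of 0. With a pseudocount of 1, and in cells without a Y-linked UMI, 1 Hippo gene was called higher in place of 3. In the Rgcc-led cells 1 gene, Tead2, was called lower in place of 0 with summed UMIs, at resolution 2 and with the listed genes kept in the clustering. In the Mylk-led cells, a comparison added after seeing the data, 1 was called lower, and the log2 fold change of Cyr61 turned from 0.90 to -0.072. Of the 104 fold changes of the myofibroblast-like comparison under all its alternatives 89 kept their call, 6 lost it, 8 gained one and 1 turned, but its cells were not the same set in each: 529 and 312 as reported, 266 and 149 at resolution 2, 862 and 539 with the listed genes kept. The cause was not tested. Tead3 and Tead4 rest on few UMIs, and the sign-flip test of a difference in share cannot go below 0.5 with 2 libraries.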
